A study of Mus musculus with 18 samples.

Results

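The genes described here move salt, water and acid across the colonic epithelium. They comprise the chloride/bicarbonate exchanger gene *Slc26a3*, the sodium/proton exchanger genes *Slc9a3* and *Slc9a2*, the 3 epithelial sodium channel (ENaC) subunit genes *Scnn1a*, *Scnn1b* and *Scnn1g*, the water channel gene *Aqp8*, the carbonic anhydrase genes *Car1* and *Car4*, and the proton/potassium pump gene *Atp12a*. They are grouped by function, and the list was drawn up with earlier results of these data known. All 10 were found among the 47729 genes of the count table, and all 10 passed the filter on low counts.

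RNA-seq libraries came from colon of WT and *Cldn2*KO mice, both on a C57BL/6 background with littermate WT animals; *Cldn2* encodes claudin-2, a pore-forming tight junction protein. Mice of each genotype were untreated controls, were sampled in the DSS-Recovery phase after colitis caused by dextran sulfate sodium (DSS), or had received azoxymethane (AOM, a carcinogen, 10 mg/kg in 1 dose) with 3 cycles of 2.5% DSS, called AOM/DSS and used as a model of colitis-associated cancer. Each of the 6 groups held 3 libraries, and the dose of DSS in the recovery group is not given in the sources used here. Labels do not say that libraries of a group came from separate animals, so p-values measure the spread between these libraries. The comparisons ask how each treatment and the loss of *Cldn2* bear on the expression of the transport genes.

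The colon absorbs sodium chloride through paired exchangers in the apical membrane of surface cells. Sodium enters in exchange for protons, chloride enters in exchange for bicarbonate, and carbonic anhydrases supply both protons and bicarbonate. The distal colon adds ENaC, an aldosterone-responsive sodium channel, and a colonic proton/potassium pump that recovers potassium. Loss of *Slc26a3* function causes chloride-losing diarrhea, and lower expression of these absorptive genes is a known feature of colitis.

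Library depth lay between 17.6 and 27.4 M counted reads, with a median of 19.6 M. *Cldn2* stood between 44.5 and 504 counts scaled to library size (CPM) in WT libraries and at no more than 0.557 CPM in *Cldn2*KO libraries, which matches the genotype on every label. The libraries also differed in markers of position along the gut. *Hoxb13* and *Hoxd13*, which mark the distal colon, stood at no more than 0.502 and 0.262 CPM in all 6 recovery libraries and in WT control replicate 2. In the other 11 libraries *Hoxb13* ranged from 198 to 570 CPM and *Hoxd13* from 192 to 235 CPM. The study names distal colon for its RNA-seq of mice recovering from DSS colitis, and only colon for that of AOM/DSS mice. The libraries with low *Hox* expression, all recovery libraries among them, lack these defining markers. From which part of the colon they came, and whether the label of WT control replicate 2 is right, was not tested, so values that rest on them hold for the libraries as labelled. Recovery therefore cannot be told apart from a low posterior *Hox* state in comparisons with the other 5 controls, and several results that rest on WT control replicate 2 are given with and without it. WT control was the only group with both *Hox* states, so fits with posterior *Hox* state as a covariate take that term from this library alone. In WT AOM/DSS against control such a fit in effect leaves the library out. In recovery it takes off that library's difference from the other WT controls, in both genotypes. Markers of other cell types and of other gut regions also differed between treatments. The summed level of 8 smooth muscle markers was 3736 to 10005 CPM in controls, 697 to 2074 CPM in recovery and 552 to 5792 CPM in AOM/DSS, and that of 7 epithelial markers was 13747 to 17924, 9081 to 14013 and 9597 to 15230 CPM. The sum of 6 fibroblast markers was 393 to 664 CPM in controls, 126 to 230 CPM in recovery and 278 to 712 CPM in AOM/DSS. That of 7 small intestine markers was 32.4 to 108 CPM in controls, with WT control replicate 2 highest, 108 to 414 CPM in recovery and 6.53 to 23.2 CPM in AOM/DSS. The sum of 7 immune markers was 64.7 to 309 CPM in controls, 34.9 to 80.8 CPM in recovery and 90.9 to 403 CPM in AOM/DSS. Enteric neuron and glia markers summed to 45.1 to 78.2, 40.9 to 76.0 and 9.27 to 49.3 CPM. None of the smooth muscle markers was at 0 in any library. Their part in the results was not tested. *Xist*, a marker of female tissue, was high in 2 libraries each of WT recovery, *Cldn2*KO recovery and *Cldn2*KO AOM/DSS, and near 0 in all others. In tissue RNA, fewer cells of a type and less RNA per cell cannot be told apart.

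In AOM/DSS colon, *Slc26a3*, *Slc9a2* and *Car4* mRNAs were lower than in control colon. Averaged over WT and *Cldn2*KO mice, *Slc26a3* fell by 2.41 on the log2 scale (SE 0.435, edgeR adjusted p 0.00507), *Slc9a2* by 1.48 (SE 0.267, edgeR adjusted p 0.00486) and *Car4* by 2.17 (SE 0.409, edgeR adjusted p 0.00583). In recovery, *Slc26a3* fell by 1.88 (SE 0.427, edgeR adjusted p 0.0038) and *Aqp8* by 3.22 (SE 0.735, edgeR adjusted p 0.00406), while *Slc9a3* rose by 3.10 (SE 0.477, edgeR adjusted p 0.000254). No member differed between *Cldn2*KO and WT past the threshold of an adjusted p of 0.05 in any treatment. The averages over genotypes were added after the data had been seen, and the values for each genotype follow.

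**Figure D1:**
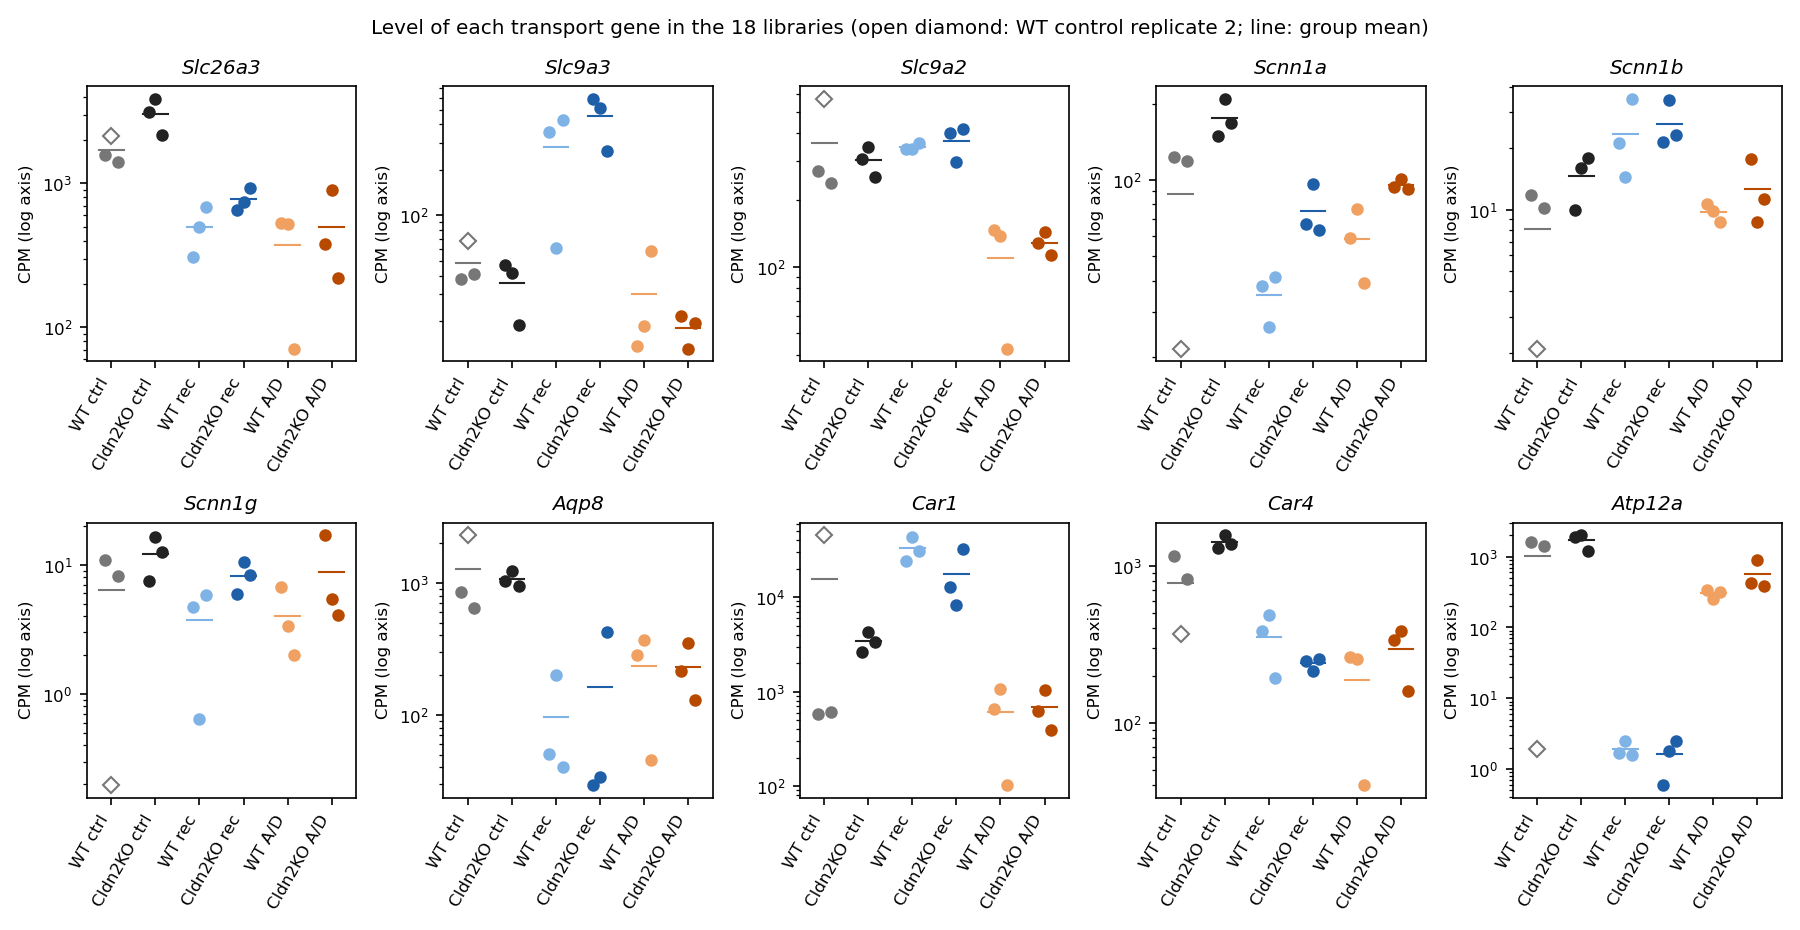
CPM (log axis) of each of the 10 transport genes in the 18 libraries, by group (ctrl, control; rec, recovery; A/D, AOM/DSS), with 1 point a library and a line at the group mean. *Atp12a* lay at 2.51 CPM or less in the 6 recovery libraries and WT control replicate 2 (open diamond), and *Slc26a3* lay below every control in all 6 AOM/DSS libraries.

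*Slc26a3*, also called DRA (down-regulated in adenoma), is the main chloride/bicarbonate exchanger of the colonic surface (GRCm38 chromosome 12, 31390871 to 31473917, plus strand). It stood at 1573, 2135 and 1404 CPM in WT controls and at 3113, 3875 and 2157 CPM in *Cldn2*KO controls. In recovery it stood at 307, 493 and 686 CPM in WT and at 655, 735 and 926 CPM in *Cldn2*KO mice. In AOM/DSS it stood at 531, 517 and 70.8 CPM in WT and at 377, 892 and 219 CPM in *Cldn2*KO mice. All 12 treated libraries thus lay below all 6 controls, including the control with a low *Hox* level.

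In WT mice *Slc26a3* fell by 1.78 in recovery (SE 0.603, edgeR adjusted p 0.0455) and by 2.19 in AOM/DSS (SE 0.611, edgeR adjusted p 0.0374), both on the log2 scale. In *Cldn2*KO mice it fell by 1.98 in recovery (SE 0.606, edgeR adjusted p 0.0329), and the log2 difference in AOM/DSS was -2.62 (SE 0.621, edgeR adjusted p 0.105). These calls for a single genotype were near the threshold. The recovery call in WT was lost without any 1 of its 6 libraries (log2 -2.07 to -1.53, edgeR adjusted p 0.0659 to 0.137), and that in *Cldn2*KO without any 1 of 5, all but *Cldn2*KO control replicate 3 (log2 -2.13 to -1.77, edgeR adjusted p 0.0622 to 0.098). The AOM/DSS call in WT was lost without WT control replicate 1, WT control replicate 2 or WT AOM/DSS replicate 3 (log2 -2.25, -2.02 and -1.70, edgeR adjusted p 0.0594, 0.107 and 0.0925). The averages over genotypes stayed past the threshold without each of their 12 libraries in turn, with edgeR adjusted p up to 0.0121 in recovery and 0.0169 in AOM/DSS. With posterior *Hox* state as a covariate the recovery average was -2.30 on the log2 scale (edgeR adjusted p 0.102).

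Promoters are shown for *Slc26a3* and *Aqp8*, which fell together in recovery, and for *Slc9a3*, which rose. RefSeq start sites on GRCm38.p6 were at hand for 6 of the 10 members, and the lines give the 250 bases before the start, 5′ to 3′. Capitals mark the TATA box letters TATAAA and the GC box letters GGGCGG on either strand, so that a GC box on the other strand reads CCGCCC.
Slc26a3, chr12:31437969-31438218, plus strand: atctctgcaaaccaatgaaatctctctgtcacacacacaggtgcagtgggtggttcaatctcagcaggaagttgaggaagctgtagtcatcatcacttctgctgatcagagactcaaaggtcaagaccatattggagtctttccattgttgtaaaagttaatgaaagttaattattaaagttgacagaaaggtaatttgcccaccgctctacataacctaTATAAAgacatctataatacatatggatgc
Aqp8, chr7:123462044-123462293, plus strand: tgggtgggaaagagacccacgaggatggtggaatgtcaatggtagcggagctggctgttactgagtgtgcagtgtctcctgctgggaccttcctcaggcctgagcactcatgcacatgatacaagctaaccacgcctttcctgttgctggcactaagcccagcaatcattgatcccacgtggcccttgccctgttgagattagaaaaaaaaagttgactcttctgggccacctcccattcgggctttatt
Slc9a3, chr13:74121163-74121412, plus strand: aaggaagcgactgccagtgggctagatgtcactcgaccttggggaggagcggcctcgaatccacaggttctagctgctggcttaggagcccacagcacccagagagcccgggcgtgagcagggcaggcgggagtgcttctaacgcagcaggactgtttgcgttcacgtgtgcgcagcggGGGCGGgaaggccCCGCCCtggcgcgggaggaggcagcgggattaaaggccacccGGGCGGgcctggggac

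The *Slc26a3* window was AT-rich, with 38.8% G and C, 1 CpG and a TATAAA whose first base lies at -30 from the start. The *Slc9a3* window was GC-rich, with 67.6% G and C, 19 CpGs and 3 GC boxes, and the *Aqp8* window lay between them at 52.4%. Over all 32851 start sites, 12.4% of windows held TATAAA, 32.7% held GGGCGG, and the median was 52.4% G and C with 6 CpGs. None of the 6 members' windows held CAATAAA, letters that posterior Hox and Cdx proteins bind (4.2% of all windows), AGAACA, a steroid receptor half-site (16.1%), or TGNACTTTG, bound by HNF4 (1.19%), on either strand. The *Slc26a3* start used here lies inside the gene span of the count table, the *Slc9a3* start lies before its gene span with no GENCODE transcript over the bases that follow it, and no match says only that these letters are not in this window.

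*Slc9a3* encodes NHE3, the main apical sodium/proton exchanger of absorptive cells (chromosome 13, 74121515 to 74166064, plus strand). It stood at 37.8, 67.5 and 40.7 CPM in WT controls and at 47.3, 41.8 and 18.7 CPM in *Cldn2*KO controls. In recovery it stood at 357, 60.9 and 427 CPM in WT and at 593, 512 and 266 CPM in *Cldn2*KO mice. In 5 of 6 recovery libraries it was therefore well above all controls, and WT recovery replicate 2 lay within the control range. That overlap rests on WT control replicate 2, since the other 5 controls reached 47.3 CPM, below all 6 recovery libraries.

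The rise of *Slc9a3* in recovery had a log2 fold change of 3.67 in *Cldn2*KO mice (SE 0.691, edgeR adjusted p 0.00261) and 2.53 in WT mice (SE 0.659, edgeR adjusted p 0.0147). The WT call was lost without WT control replicate 1, WT control replicate 3 or WT recovery replicate 3 (log2 2.38, 2.42 and 2.12, edgeR adjusted p 0.0646, 0.0526 and 0.0549). With posterior *Hox* state as a covariate the average over genotypes was 2.47 (edgeR adjusted p 0.193). In AOM/DSS *Slc9a3* stood at 13.7, 18.6 and 58.0 CPM in WT and at 21.5, 13.1 and 19.4 CPM in *Cldn2*KO mice, overlapping the controls, with log2 differences of -0.69 (95% interval -2.03 to 0.65) and -1.0 (-2.35 to 0.36).

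*Slc9a2* encodes NHE2, a second apical sodium/proton exchanger (chromosome 1, 40680574 to 40769273, plus strand). Recovery libraries held 297 to 417 CPM, within the range of 239 to 574 CPM of the controls. Without WT control replicate 2 the controls reached 345 CPM, and 3 of 6 recovery libraries lay above that. AOM/DSS libraries held 147, 138 and 42.6 CPM in WT and 127, 143 and 113 CPM in *Cldn2*KO mice, so every AOM/DSS library lay below every control. It fell by 1.72 on the log2 scale in WT mice (SE 0.38, edgeR adjusted p 0.0182), and the difference in *Cldn2*KO mice was -1.24 (SE 0.375, edgeR adjusted p 0.157). The WT call was lost without WT control replicate 2, which had the highest control level (log2 -1.24, edgeR adjusted p 0.0678), whereas the average over genotypes kept its call without each library in turn (edgeR adjusted p up to 0.0177).

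The ratio of the exchangers was higher in recovery than in control libraries. Per exonic kilobase, the ratio of the *Slc9a3* to the *Slc9a2* level was 0.33 to 0.478 in WT controls and 0.206 to 0.433 in *Cldn2*KO controls. It was 0.505 to 3.32 in WT recovery and 1.79 to 4.84 in *Cldn2*KO recovery. In AOM/DSS it was 0.262 to 0.379 in the first 2 WT libraries and 3.82 in WT AOM/DSS replicate 3, and 0.257 to 0.484 in *Cldn2*KO mice. WT control replicate 2, the control with low *Hox* expression, was at 0.33.

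ENaC is built from 3 subunits, of which the alpha subunit, encoded by *Scnn1a*, is required for channel activity (chromosome 6, 125320659 to 125344943, plus strand). *Scnn1a* stood at 123, 21.5 and 119 CPM in WT controls and at 149, 209 and 168 CPM in *Cldn2*KO controls. In recovery it stood at 38.1, 26.3 and 41.2 CPM in WT and at 66.9, 96.0 and 63.1 CPM in *Cldn2*KO mice. The AOM/DSS levels were 59.0, 76.5 and 39.0 CPM in WT and 93.9, 101 and 92.3 CPM in *Cldn2*KO mice. Within each treatment the 3 *Cldn2*KO libraries lay above the 3 WT libraries.

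The log2 difference of *Scnn1a* between *Cldn2*KO and WT was 1.0 in controls (95% interval 0.06 to 1.94, edgeR adjusted p 0.347), 1.10 in recovery (0.15 to 2.04, edgeR adjusted p 0.183) and 0.72 in AOM/DSS (-0.21 to 1.65, edgeR adjusted p 0.871). None passed the threshold. Averaged over the 3 treatments, a contrast added after the data had been seen, it was 0.94 (SE 0.254, edgeR adjusted p 0.0798). Without WT control replicate 2 that average was 0.77 and was called (SE 0.14, edgeR adjusted p 0.0097). The posterior *Hox* covariate sets the same library apart, so its value (0.78) is no separate check. Of 28 alternatives, 4 called the average, and the edgeR adjusted p reached 0.189. Smooth muscle markers were also higher in *Cldn2*KO than in WT controls, at 7646 to 10005 against 3736 to 5607 CPM, while the epithelial sum was 13747 to 16492 against 14971 to 17924 CPM. Their part in the *Scnn1a* difference was not tested.

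Between treatments, *Scnn1a* fell by 1.32 on the log2 scale in WT recovery (SE 0.445, edgeR adjusted p 0.0457), and the difference in *Cldn2*KO recovery was -1.22 (SE 0.442, edgeR adjusted p 0.0661). With posterior *Hox* state as a covariate, whose term rests on WT control replicate 2 alone, the direction turned, to 0.71 in WT and 1.27 in *Cldn2*KO mice. Without that library the WT value was -1.80 (edgeR adjusted p 0.000145), and the call was lost without any 1 of the other 5 libraries of the comparison (log2 -1.43 to -0.99, edgeR adjusted p 0.0847 to 0.184).

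*Scnn1b* and *Scnn1g* encode the beta and gamma subunits and lie side by side on chromosome 7 (121865038 to 121918514 and 121734479 to 121768475, plus strand). *Scnn1b* stood at 11.8, 2.10 and 10.2 CPM in WT controls, 10.0, 16 and 18 CPM in *Cldn2*KO controls, 21.1, 14.5 and 35.0 CPM in WT recovery and 21.4, 34.4 and 23.3 CPM in *Cldn2*KO recovery. *Scnn1b* rose by 1.54 on the log2 scale in WT recovery (SE 0.479, edgeR adjusted p 0.0319), with a difference of 0.85 in *Cldn2*KO recovery (edgeR adjusted p 0.229), and recovery and control libraries of each genotype did not overlap. The average was 1.19 (edgeR adjusted p 0.0131) and 3.36 with posterior *Hox* state as a covariate, and it lost its call with *Xist* state as a covariate (1.25, edgeR adjusted p 0.063). The WT call was lost without WT control replicate 3, WT recovery replicate 1 or WT recovery replicate 3 (log2 1.74, 1.62 and 1.16, edgeR adjusted p 0.0519, 0.0513 and 0.136).

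*Scnn1g* had few reads, at 0.196 to 16.5 CPM in controls, 0.646 to 10.4 CPM in recovery and 1.99 to 17 CPM in AOM/DSS, and its groups overlapped throughout the treatment comparisons. In WT control replicate 2 it rested on 3 reads. *Scnn1b* in AOM/DSS, at 8.70 to 17.7 CPM, also overlapped the controls. Deviations of the 3 subunits from group means had Pearson r between 0.864 (*Scnn1a* with *Scnn1b*) and 0.931 (*Scnn1b* with *Scnn1g*) over 18 libraries, which share scaling and tissue makeup. WT control replicate 2 lay far below its group for all 3 and weighs heavily on these values. They were not computed without it, so they do not show whether the subunits varied together in the other libraries.

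In controls, *Scnn1b* was a small fraction of *Scnn1a* per exonic kilobase, with a ratio of 0.135 to 0.153 in WT and 0.105 to 0.168 in *Cldn2*KO mice. In recovery the ratio was 0.866 to 1.33 in WT and 0.501 to 0.579 in *Cldn2*KO mice. In AOM/DSS it was 0.203 to 0.35 and 0.135 to 0.296. The recovery libraries thus lay above all others, and those of WT lay above those of *Cldn2*KO mice. WT control replicate 2 was at 0.153, where *Scnn1b* rested on 32 reads and both subunits were far lower than in the other controls. These ratios were looked at after the values had been seen and are given as a description.

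**Figure D2:**
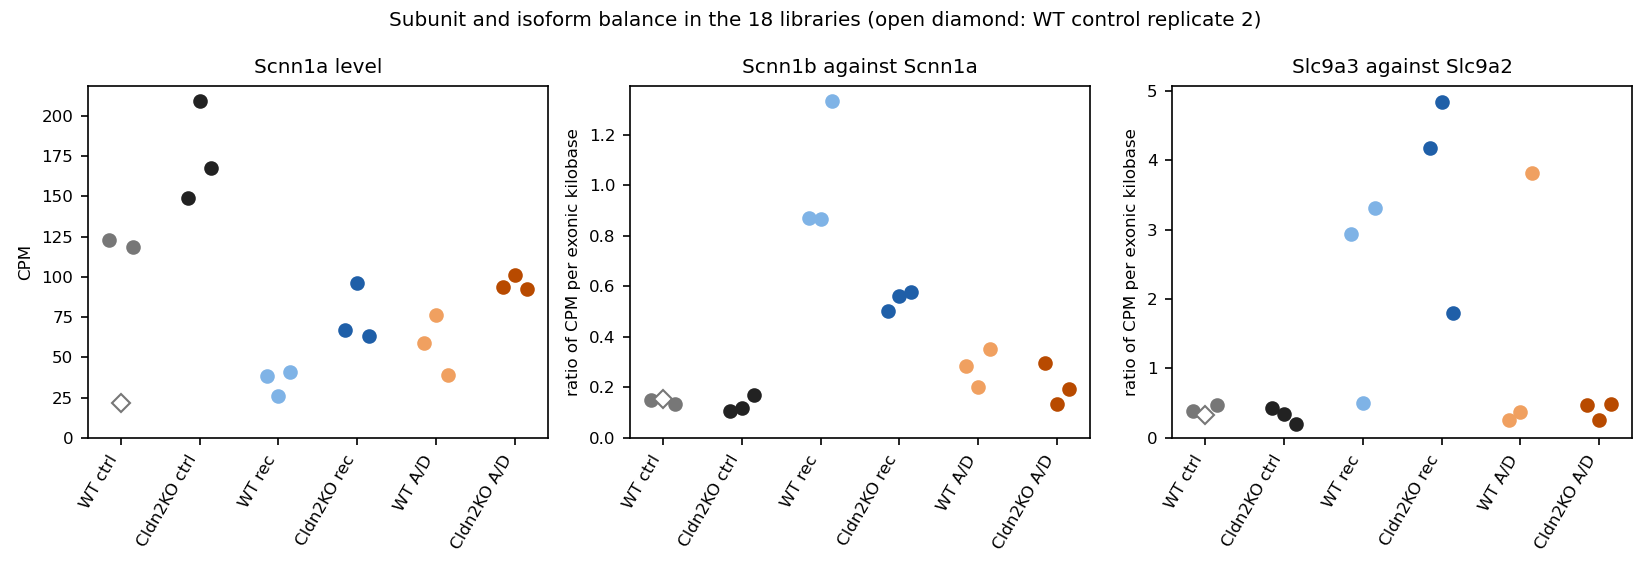
*Scnn1a* level in CPM (left), ratio of *Scnn1b* to *Scnn1a* (middle) and ratio of *Slc9a3* to *Slc9a2* (right), both per exonic kilobase, in each of the 18 libraries by group. *Cldn2*KO lay above WT for *Scnn1a* within each treatment, and the *Scnn1b* ratio was at least 0.501 in recovery libraries and at most 0.35 elsewhere.

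*Aqp8* encodes aquaporin-8, a water channel of colonic surface cells (chromosome 7, 123462291 to 123468004, plus strand; promoter above). It stood at 846, 2303 and 643 CPM in WT controls and at 1041, 1238 and 943 CPM in *Cldn2*KO controls. In recovery it stood at 50.8, 199 and 39.98 CPM in WT and at 29.2, 33.7 and 421 CPM in *Cldn2*KO mice. In AOM/DSS it stood at 282, 371 and 45.4 CPM in WT and at 215, 348 and 129 CPM in *Cldn2*KO mice. All 12 treated libraries lay below all 6 controls, and WT control replicate 2 was the highest library of all.

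*Aqp8* fell by 3.71 on the log2 scale in WT recovery (SE 1.06, edgeR adjusted p 0.023), and the differences in *Cldn2*KO recovery, WT AOM/DSS and *Cldn2*KO AOM/DSS were -2.74, -2.44 and -2.22 (edgeR adjusted p 0.0732, 0.12 and 0.31). The edgeR adjusted p in WT AOM/DSS was 0.368 without WT control replicate 2, the highest control. Without *Cldn2*KO recovery replicate 3, the library at 421 CPM, the *Cldn2*KO recovery value was -5.09 (edgeR adjusted p 0.006) and the average over genotypes moved from -3.22 to -4.40, and without WT recovery replicate 2, at 199 CPM, the WT value was -4.80 (edgeR adjusted p 0.0246). The average over genotypes in recovery was called under all 22 alternatives, the *Hox* covariate included (-4.47, edgeR adjusted p 0.0459). The average in AOM/DSS was -2.33 (edgeR adjusted p 0.0355) and lost its call without any 1 of 8 libraries, which were WT control replicate 2 (log2 -1.96, edgeR adjusted p 0.081), the 3 *Cldn2*KO controls, and replicates 1 and 3 of AOM/DSS in each genotype, with edgeR adjusted p up to 0.0947. The WT recovery call was lost without WT control replicate 2, WT recovery replicate 1 or WT recovery replicate 3 (log2 -2.97, -3.40 and -3.31, edgeR adjusted p 0.0537, 0.0759 and 0.0872).

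*Car1* and *Car4* encode the cytosolic and the membrane-anchored carbonic anhydrase of surface cells. *Car1* (chromosome 3, 14766216 to 14808368, minus strand) stood at 573, 45440 and 605 CPM in WT controls, 2626, 4318 and 3359 CPM in *Cldn2*KO controls, 24297, 43582 and 31128 CPM in WT recovery and 12919, 8171 and 32276 CPM in *Cldn2*KO recovery. AOM/DSS libraries held 657, 1078 and 102 CPM in WT and 622, 1046 and 392 CPM in *Cldn2*KO mice. WT control replicate 2 thus held more *Car1* than any recovery library, at 4.54% of its reads, while the other 2 WT controls lay within the AOM/DSS range.

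Every *Car1* comparison with WT controls turned on that library. The log2 difference in WT recovery was 1.09 (edgeR adjusted p 0.557) with it and 5.79 without it (edgeR adjusted p 0.000508). *Car1* fell by 4.67 in WT AOM/DSS (SE 1.39, edgeR adjusted p 0.0462), and the value was 0.04 without WT control replicate 2 (edgeR adjusted p 0.984). It was 0.06 with the *Hox* covariate, which sets the same library apart, and 0.11 by limma-voom with sample weights. That call was also lost without any 1 of the 3 WT AOM/DSS libraries (edgeR adjusted p 0.0693 to 0.161). The average over genotypes in AOM/DSS was -3.49 (edgeR adjusted p 0.021) and -1.14 without WT control replicate 2 (edgeR adjusted p 0.125), and its call was also lost without WT AOM/DSS replicate 3 or *Cldn2*KO AOM/DSS replicate 1 or 3. Between *Cldn2*KO and WT controls the log2 difference of *Car1* was -2.18 (edgeR adjusted p 0.501) and turned to 2.52 without it (SE 0.787, edgeR adjusted p 0.195), a ratio of group means of 5.83. Limma-voom with sample weights gave 2.14 and called it (adjusted p 0.0195). In *Cldn2*KO mice, where all control libraries had high *Hox* levels, the groups did not overlap. The difference was 2.37 in recovery (95% interval -0.30 to 5.05, edgeR adjusted p 0.208) and -2.32 in AOM/DSS (-4.99 to 0.35, edgeR adjusted p 0.396). With the *Hox* covariate, whose term rests on WT control replicate 2 alone, the *Cldn2*KO recovery value turned to -3.90. The recovery average of 1.73 turned likewise, to -2.18.

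*Car4* (chromosome 11, 84957786 to 84966044, plus strand) stood at 1159, 367 and 825 CPM in WT controls and at 1296, 1575 and 1378 CPM in *Cldn2*KO controls. In recovery it stood at 383, 485 and 193 CPM in WT and at 249, 214 and 257 CPM in *Cldn2*KO mice. The AOM/DSS levels were 262, 257 and 39.9 CPM in WT and 339, 383 and 160 CPM in *Cldn2*KO mice. WT control replicate 2 lay within the range of the recovery libraries, and the 5 other controls lay above all treated libraries.

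*Car4* fell by 2.56 on the log2 scale in *Cldn2*KO recovery (SE 0.587, edgeR adjusted p 0.00762) and by 2.07 in WT AOM/DSS (SE 0.576, edgeR adjusted p 0.0371). The differences in WT recovery and *Cldn2*KO AOM/DSS were -1.15 and -2.27 (edgeR adjusted p 0.154 and 0.117). With the *Hox* covariate the recovery average of -1.85 was -0.59 (edgeR adjusted p 0.706), whereas the AOM/DSS average was called under all 22 alternatives (log2 -2.35 to -1.94). The WT AOM/DSS call was lost without WT control replicate 1, WT control replicate 3 or WT AOM/DSS replicate 3 (log2 -1.68, -2.04 and -1.60, edgeR adjusted p 0.0969, 0.0562 and 0.0925).

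*Atp12a* encodes the catalytic subunit of the colonic proton/potassium pump, which takes up potassium in the distal colon (chromosome 14, 56365068 to 56388551, plus strand). It stood at 1634, 1.90 and 1435 CPM in WT controls and at 1914, 2022 and 1219 CPM in *Cldn2*KO controls. In recovery it stood at 1.71, 2.51 and 1.60 CPM in WT and at 0.589, 1.81 and 2.46 CPM in *Cldn2*KO mice, from 11 to 50 reads. In AOM/DSS it stood at 343, 252 and 315 CPM in WT and at 426, 901 and 388 CPM in *Cldn2*KO mice. The 7 libraries with low *Hox* expression were all under 3 CPM, and the 6 AOM/DSS libraries lay below the 5 other controls. Since 557 exonic bases overlap *Gm10873* on the other strand and the counting is not stated to use strand, the *Atp12a* level is uncertain by what that gene contributed.

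The recovery difference of *Atp12a* was the largest of any member, with a fall of 9.05 on the log2 scale in WT (SE 1.53, edgeR adjusted p 0.00177) and 10.0 in *Cldn2*KO mice (SE 1.59, edgeR adjusted p 0.000998). It held without each library in turn, but with posterior *Hox* state as a covariate the values were 0.01 and -0.38 (edgeR adjusted p 0.996 and 0.895). In AOM/DSS the differences were -1.76 in WT (edgeR adjusted p 0.3) and -1.59 in *Cldn2*KO mice (edgeR adjusted p 0.51). Without WT control replicate 2 the WT difference was called at -2.36 (SE 0.393, edgeR adjusted p 0.0083).

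*Car1* and *Atp12a* divided the libraries in opposite directions. All 7 libraries with low *Hox* expression held at least 8171 CPM of *Car1* and under 3 CPM of *Atp12a*, and the other 11 held at most 4318 CPM of *Car1* and at least 252 CPM of *Atp12a*. *Slc9a3* was the only other member whose 7 low and 11 high *Hox* libraries did not overlap, with a low of 60.9 CPM against a high of 58.0 CPM. For 3 members, *Slc9a3*, *Car4* and *Atp12a*, WT control replicate 2 lay within the range of the 6 recovery libraries. It lay above that range for *Slc26a3*, *Slc9a2*, *Aqp8* and *Car1*, and below it for the 3 ENaC subunits.

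**Figure D3:**
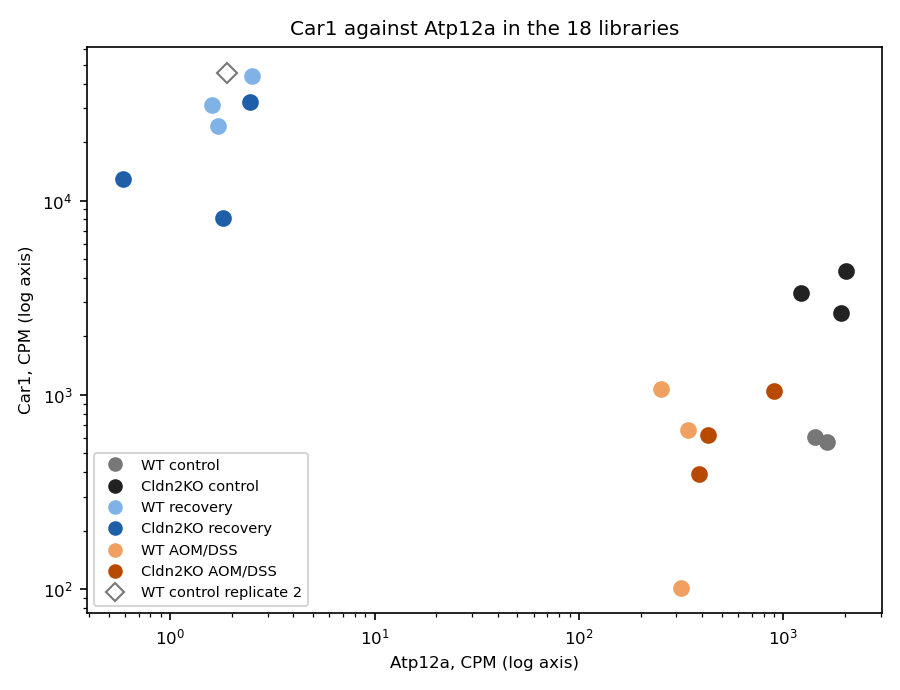
*Car1* against *Atp12a*, both in CPM on log axes, with 1 point for each of the 18 libraries, coloured by group. The 6 recovery libraries and WT control replicate 2 (open diamond) sit together at low *Atp12a* and high *Car1*, and the AOM/DSS libraries sit below the remaining controls for *Atp12a*.

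The share of members called was read against that of all 16937 genes tested. In recovery 6 of 10 members were called in WT, against 22.2% of all genes, of which 2 were higher (10% of all genes) and 4 lower (12.2%). In *Cldn2*KO mice 4 of 10 were called, against 19.4%, of which 1 was higher (9.43%) and 3 lower (10%). Recovery and control libraries did not overlap for 3 members in WT (37.7% of all genes) and for 8 in *Cldn2*KO mice (40.3%). The median log2 fold change of the members was -0.96 in WT and -0.90 in *Cldn2*KO recovery, beside -0.04 and 0.00 over all genes. Averaged over genotypes, 7 of 10 were called, against 31.5% of all genes, of which 2 were higher (14.6%) and 5 lower (16.9%). In AOM/DSS 4 of 10 were called in WT, all lower, against 10.4% of all genes (6.58% lower), and 0 in *Cldn2*KO mice, against 0.195%. In *Cldn2*KO mice the sign was negative for all 10, the groups did not overlap for 7 (29.1% of all genes) and 4 had an unadjusted p under 0.05 (15.2%). DESeq2 called 3 of them there and limma-voom called 6. The shares of all genes that these methods call are not given here, and the 0.195% does not apply to these counts. WT AOM/DSS and control libraries did not overlap for 4 (32.2% of all genes). Averaged over genotypes, 5 of 10 were called in AOM/DSS, against 17.5% of all genes, all lower (9.46% of all genes). Without WT AOM/DSS replicate 3, which had the lowest level of 8 members among the AOM/DSS libraries, 1 member, *Slc9a2*, was called in WT AOM/DSS. That library also had the lowest epithelial (9597 CPM), smooth muscle (552 CPM) and enteric neuron and glia (9.27 CPM) sums of the AOM/DSS libraries. Its sums of immune (403 CPM) and of proliferation markers (967 CPM) were the highest of them. The part of these differences was not tested. The median log2 fold change of the members was -1.74 in WT and -1.42 in *Cldn2*KO AOM/DSS, beside 0.01 over all genes in each.

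The member calls ended under other settings too. Of 26 calls for single members, in 1 genotype or averaged, 18 were not made with the *Hox* covariate (edgeR adjusted p 0.0743 to 0.996), 10 with no filter on low counts (edgeR adjusted p 0.0606 to 0.12) and 8 with only the compared groups in the fit (0.0516 to 0.236). Under the *Hox* covariate, whose term rests on WT control replicate 2 alone, the sizes went different ways. *Slc26a3* in WT recovery, *Cldn2*KO recovery and WT AOM/DSS stayed at -2.11, -2.50 and -2.0 on the log2 scale (edgeR adjusted p 0.0901, 0.302 and 0.108), and *Slc9a3* stayed at 2.06 and 2.89 in WT and *Cldn2*KO recovery (edgeR adjusted p 0.192 and 0.302). *Slc9a2* in WT AOM/DSS was -1.22 (edgeR adjusted p 0.0743), and the AOM/DSS average was -1.95 for *Aqp8* (edgeR adjusted p 0.0767) and -1.13 for *Car1* (edgeR adjusted p 0.124). *Car4* in *Cldn2*KO recovery shrank to -1.13 (edgeR adjusted p 0.663). The other 9 were the recovery averages of *Slc26a3*, *Slc9a3*, *Car4*, *Scnn1a* and *Atp12a*, the WT recovery values of *Scnn1a* and *Atp12a*, *Atp12a* in *Cldn2*KO recovery and *Car1* in WT AOM/DSS, of which those of *Scnn1a* turned and those of *Atp12a* and *Car1* lay near 0. With the *Xist* covariate 6 were not made (edgeR adjusted p 0.051 to 0.104), which were *Slc26a3*, *Scnn1a* and *Scnn1b* in WT recovery, *Scnn1a* and *Scnn1b* averaged in recovery, and *Car1* in WT AOM/DSS. With the replicate block 4 were not made, *Slc26a3* and *Scnn1a* in WT recovery and *Car1* and *Car4* in WT AOM/DSS (edgeR adjusted p 0.0532 to 0.153).

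**Figure D4:**
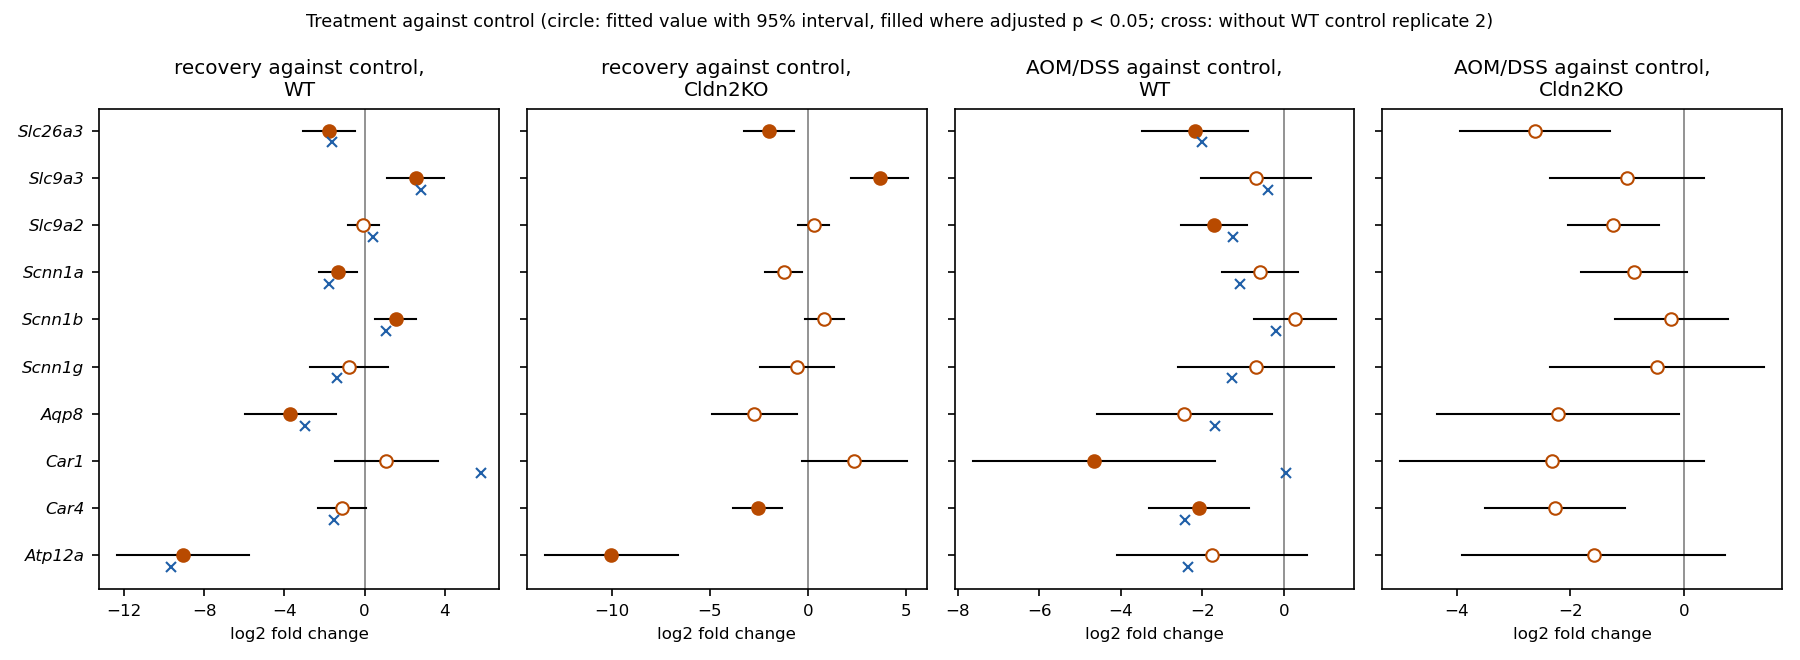
Log2 fold change of each member against the control of its genotype, in recovery and AOM/DSS, with its 95% interval. Filled circles mark an edgeR adjusted p under 0.05, and crosses give the WT value without WT control replicate 2. *Atp12a* lay near -9 and -10 in recovery, and all 10 values were negative in *Cldn2*KO AOM/DSS.

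Loss of *Cldn2* called 0 of 10 members in controls (1.17% of all genes were called), 0 in recovery (0.974%) and 0 in AOM/DSS (0.0059%). At an unadjusted p under 0.05 there were 1, 1 and 0 members (13.1%, 19.9% and 5.6% of all genes), which was *Scnn1a* in controls and in recovery. DESeq2 called 0 in each, and limma-voom 1 in controls and 1 in recovery, with no share of all genes under these methods given here. *Cldn2*KO and WT libraries did not overlap for 3 members in controls, *Slc26a3*, *Scnn1a* and *Car4* (22.3% of all genes), for *Scnn1a* and *Scnn1g* in recovery (23.9%) and for *Scnn1a* and *Atp12a* in AOM/DSS (11.3%), and *Cldn2*KO was higher in each case. For *Slc26a3* in controls the log2 difference was 0.84 (95% interval -0.41 to 2.09). Whether a treatment response differed between genotypes was tested by an interaction contrast, which called 0 members for recovery (0.13% of all genes) and 0 for AOM/DSS (0.0118%), with 0 at an unadjusted p under 0.05 in both (18.5% and 8.44% of all genes). The average over the 3 treatments called 0 members, against 1.5% of all genes. At an unadjusted p under 0.05 there was 1 member, beside 3086 of all 16937 genes. DESeq2 and limma-voom each called 1, with no share of all genes given here. The intervals remained wide: for *Slc26a3* the difference of the AOM/DSS responses was -0.43 (-2.19 to 1.33), and for *Car4* that of the recovery responses was -1.41 (-3.09 to 0.26).

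Compared per exonic kilobase, *Car1* was the most abundant member in *Cldn2*KO controls, at 2752 ± 680 CPM per kb (SD, n = 3). *Car4* (720 ± 73.0), *Aqp8* (679 ± 95.3), *Slc26a3* (479 ± 135) and *Atp12a* (435 ± 110) followed, and neighbours in this order overlapped. *Slc9a2* (43.3 ± 6.50) and *Scnn1a* (42.5 ± 7.44) overlapped each other at a lower level, above *Slc9a3* (14.4 ± 6.09), and *Scnn1b* (5.57 ± 1.57) and *Scnn1g* (4.08 ± 1.5) came last. In WT recovery *Car1* was at 26444 ± 7835 CPM per kb (SD, n = 3), while *Car4*, *Slc9a3*, *Slc26a3*, *Aqp8* and *Slc9a2* lay between 180 and 49.6 CPM per kb with overlap between neighbours, and *Atp12a* was last at 0.491 ± 0.126. Without *Car1*, the members together made up 4724 to 5666 CPM in WT controls, 1504 to 1791 CPM in WT recovery and 621 to 1655 CPM in WT AOM/DSS, and 6168 to 9339, 1935 to 2383 and 1136 to 2795 CPM in *Cldn2*KO mice.

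Of 58 other genes of colonic transport, 54 passed the filter; *Pdzk1*, *Car15*, *Aqp3* and *Aqp7* did not. In recovery 13 were called in WT (5 higher, 8 lower), against 22.2% of all genes, and 17 in *Cldn2*KO mice (11 higher, 6 lower), against 19.4%. In AOM/DSS 15 were called in WT (2 higher, 13 lower), against 10.4% of all genes, and 1 in *Cldn2*KO mice, against 0.195%. The WT recovery count was thus near the share of all genes. Their median log2 fold change was -0.24, 0.17, -0.60 and -0.18 in these comparisons. The genotypes differed for 1 of them, *Ezr* in recovery (0.974% of all genes were called). *Ezr*, which encodes the apical linker ezrin, was higher in *Cldn2*KO mice by 1.06 (SE 0.226, edgeR adjusted p 0.0418), a call lost with only the recovery groups in the fit, with the *Xist* covariate, with the replicate block, and without replicate 2 or 3 of either recovery group.

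Of the genes of chloride and potassium secretion, *Cftr*, the apical chloride channel, rose in recovery by 1.34 in WT (edgeR adjusted p 0.0184) and 1.20 in *Cldn2*KO mice (edgeR adjusted p 0.0315), and *Slc12a2*, the basolateral cotransporter NKCC1 that loads chloride for secretion, by 1.34 and 1.0 (edgeR adjusted p 0.0114 and 0.0442). *Ano1*, a calcium-activated chloride channel also found in interstitial cells of Cajal, was lower in recovery (-2.95 and -3.69, edgeR adjusted p 0.00675 and 0.0023). In WT AOM/DSS *Slc12a2* rose by 1.09 (edgeR adjusted p 0.0479) and *Clcn2* fell by 1.12 (edgeR adjusted p 0.0162). Of 9 tested genes of this list, 3 were higher and 1 lower in WT recovery, 2 higher and 2 lower in *Cldn2*KO recovery, 1 higher and 1 lower in WT AOM/DSS, and none was called in *Cldn2*KO AOM/DSS. Of all genes, 22.2%, 19.4%, 10.4% and 0.195% were called in these comparisons.

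In the list of ENaC regulation and aldosterone response, 13 of 13 genes were tested. *Tsc22d3*, which encodes the glucocorticoid- and aldosterone-induced factor GILZ, was lower in *Cldn2*KO recovery (-1.12, edgeR adjusted p 0.0219), WT AOM/DSS (-1.52, edgeR adjusted p 0.0154) and *Cldn2*KO AOM/DSS (-1.67, edgeR adjusted p 0.0479). This last call was lost with upper-quartile scaling, no filter, the *Xist* covariate or the replicate block, and without any 1 of the *Cldn2*KO controls or of *Cldn2*KO AOM/DSS replicates 1 and 3. *Sgk1*, a kinase that raises ENaC at the membrane, fell by 2.30 in WT AOM/DSS (SE 0.506, edgeR adjusted p 0.0188), and the *Cldn2*KO value was -2.46 (edgeR adjusted p 0.0691). In WT AOM/DSS 5 genes of the list were lower and none higher (6.58% of all genes were lower), with *Nedd4l*, the ubiquitin ligase that removes ENaC, among them (-1.11, edgeR adjusted p 0.0259). *Fxyd4*, a sodium pump regulator of the distal colon, ranged from 0.0717 to 0.71 CPM over recovery and stood at 0.0655 CPM (1 read) for WT control replicate 2, whereas the remaining 11 libraries held 16.9 to 166 CPM. In recovery 3 genes of the list were lower in WT (12.2% of all genes), *Fxyd4* (-5.55, edgeR adjusted p 0.0041) and the protease and inhibitor genes *St14* and *Spint1* (-0.55 and -0.91, edgeR adjusted p 0.0374 and 0.00301). In *Cldn2*KO recovery 2 were higher, among them the glucocorticoid receptor gene *Nr3c1* (1.01, edgeR adjusted p 0.0282), and 2 were lower (9.43% and 10% of all genes), with *Fxyd4* at -8.47 (edgeR adjusted p 0.000552).

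Among other carbonic anhydrases, *Car8*, a catalytically inactive relative, rose by 3.55 in WT (edgeR adjusted p 0.00041) and 4.95 in *Cldn2*KO recovery (edgeR adjusted p 7.39e-05). *Car12*, a membrane-bound enzyme, rose by 5.09 in *Cldn2*KO recovery (edgeR adjusted p 0.00878) and stood at 391 CPM in WT control replicate 2, where replicates 1 and 3 of that group had 7.04 and 6.69 CPM. *Car13* rose by 0.91 in *Cldn2*KO recovery (edgeR adjusted p 0.0431). *Car8*, *Car7* and *Car14* moved by 3.55, -1.93 and -1.69 in WT recovery, the latter pair from control levels of 0.327 to 1.96 CPM. In WT AOM/DSS *Car8* fell by 1.49 and *Car14* by 2.46 (edgeR adjusted p 0.0417 and 0.0243). Of the 3 other aquaporins tested, *Aqp1*, found in endothelium, rose in recovery by 1.82 and 1.04 and *Aqp4*, a basolateral channel, fell by 2.0 and 2.05 in WT and *Cldn2*KO mice (edgeR adjusted p 0.000734, 0.0111, 0.0414 and 0.0418). *Aqp11* fell by 1.44 in WT AOM/DSS (edgeR adjusted p 0.0353).

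Of the scaffolds and regulators of sodium/proton exchange, *Slc9a3r1*, which encodes the NHE3 scaffold NHERF1, fell by 2.34 in WT AOM/DSS (SE 0.347, edgeR adjusted p 0.00365), with *Chp1* by 1.53 and *Ezr* by 1.19 (edgeR adjusted p 0.0203 and 0.0105). This made 3 of 7 tested genes lower and none higher there, while 6.58% of all genes were called lower. *Ezr* also fell by 1.30 in WT recovery (edgeR adjusted p 0.00177). Of the sodium pump genes, *Fxyd3*, a regulator, rose by 1.10 in WT AOM/DSS and by 0.93 in *Cldn2*KO recovery (edgeR adjusted p 0.0338 and 0.0399). Among 6 other anion exchangers, *Slc4a2* rose by 1.95 and *Slc26a6* fell by 1.30 in *Cldn2*KO recovery (edgeR adjusted p 0.00302 and 0.00516), and none was called in the other 3 treatment comparisons. None of the 4 short-chain fatty acid transport genes was called in any of the 4, beside 22.2%, 19.4%, 10.4% and 0.195% of all genes, a count of genes too small to set the list apart from those shares.

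Of the other transport genes tested and named above, 6 share over 100 exonic bases with genes on the other strand, and their levels are uncertain to that extent. The overlap was 2059 bases for *Fxyd3* (with *Lgi4*), 1242 for *Slc4a2* (*Fastk* and *Gm22333*), 445 for *Car14* (*Aph1a*), 277 for *Nedd4l*, 167 for *Clcn2* and 129 for *Cftr*.

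**Figure D5:**
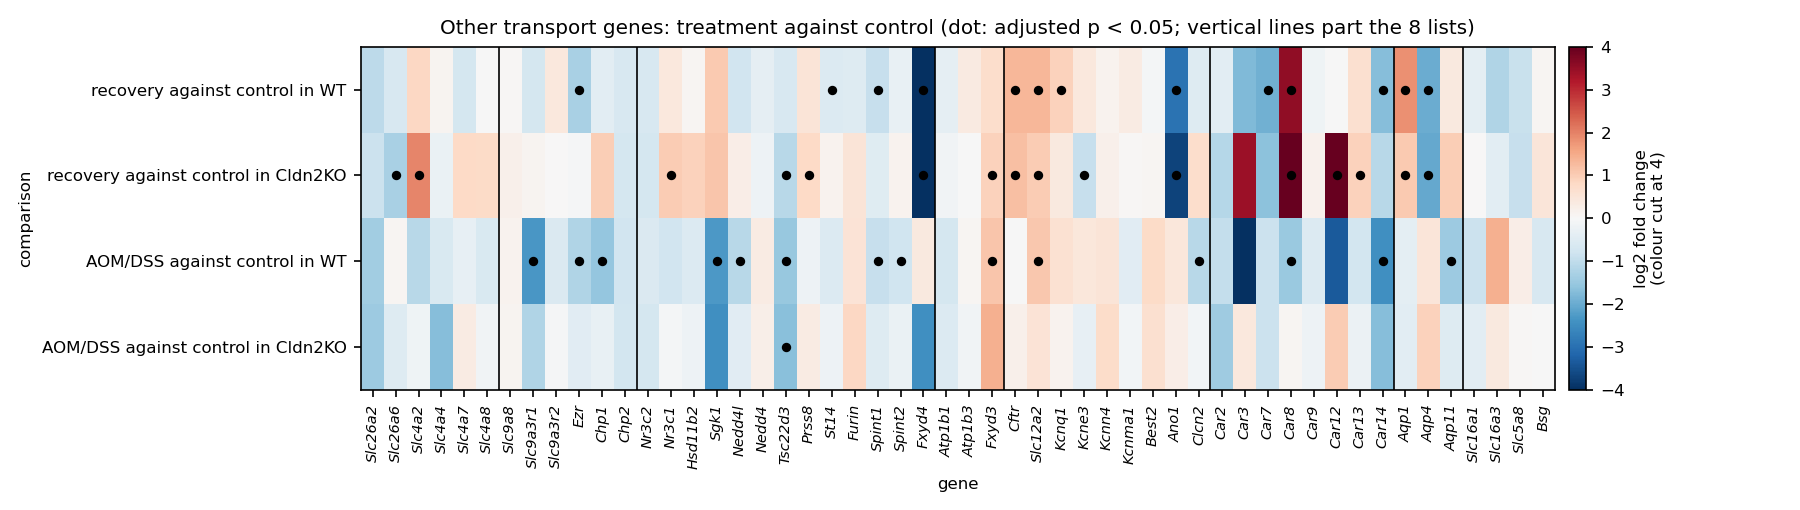
Log2 fold change (colour) of 52 of the other transport genes tested, in columns, for each treatment against the control of its genotype, in rows. Dots mark an edgeR adjusted p under 0.05: 13, 16, 14 and 1 of the genes from the top row down.

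The genes whose levels were most like each member over the 18 libraries, by Pearson r of log2 CPM among 13174 genes, are given as a description, since the libraries fall into clusters. *Atp12a* was closest to *Hoxb13* (r 0.988), *St8sia5* (0.988) and *Tgm3* (0.984), and *Car1* to *Hsd3b3* (0.979), *Hsd3b2* (0.977) and *Ociad2* (0.972). *Slc9a2* was closest to *Slc16a5* (0.972), *Selenbp1* (0.969) and *Ppfia3* (0.955), and *Slc26a3* to *Slc20a1* (0.934), *Trpm6* (0.928) and the sulfate exchanger gene *Slc26a2* (0.926). *Slc9a3* was closest to *Rock2* (0.953), *Pdk4* (0.936) and *Slc46a3* (0.926), and *Scnn1a* to *Tnnt2* (0.95), *Pllp* (0.934) and *Magi1* (0.912). *Aqp8* was closest to *Agpat4* (0.924), *Ihh* (0.922) and *Cpxm2* (0.905), and *Car4* to *Pkdcc* (0.921), *Cyp4f16* (0.916) and *Tesk2* (0.911). The lowest values were those of *Scnn1b* with *Qsox1* (0.894) and *Pfkfb4* (0.835), and of *Scnn1g* with *Trim6* (0.876), *Blcap* (0.864) and *Best2* (0.858).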

How the data were processed

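RNA-seq was available for 18 libraries of mouse colon in 6 groups of 3. The authors deposited raw counts of reads per gene (47729 genes), with 2 lanes per library, and 0 columns lacked a sample. The submitters' processing notes name GRCm38, HISAT2, Subread and featureCounts, while the study's methods name TopHat2; versions, strandedness and annotation release are not given in the sources used here. Lanes were summed. A chi-square test of counts between paired lanes gave 1.08 to 1.17 per degree of freedom, close to counting noise, and between replicates at least 11.0. Groups came from the sample titles and labels.

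Genes with low counts were dropped by filterByExpr of edgeR (version 4.0.16, R version 4.3.3), which left 16937 genes. Counts were scaled by TMM and 1 quasi-likelihood model was fitted over all 6 groups (12 residual degrees of freedom, biological coefficient of variation 0.315). P-values were adjusted by Benjamini-Hochberg over all genes tested, with a threshold of 0.05, and 95% intervals use the t quantile of each gene's degrees of freedom. Levels are CPM, and CPM per exonic kilobase where genes are compared. The steps were tested on simulated data. CPM carries counting error on top of the spread between libraries, which matters for genes of few reads.

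The 10 members, 58 other transport genes and marker lists were chosen with earlier results of these data known. Named beside the members are up to 3 called genes with the largest change per list and contrast, and the 3 genes most like each member. A few genes that this rule would name are not reported here, though they stay in the fits and the counts of lists. Comparisons with controls of 1 genotype share those controls. The 3 averaged contrasts were added after seeing the data. Alternatives were other scalings, filters, DESeq2 (version 1.42.0), limma-voom (limma version 3.58.1), covariates, a replicate block, the compared groups alone and leaving out each library. Promoters came from RefSeq, and 47224 gene IDs matched GENCODE.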

Additional observations from a re-analysis of the deposited data

How the results depend on the processing

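Of 488 values of single called members under the alternatives, 392 kept direction and call, 90 kept direction but lost the call and 6 turned. Those that turned were *Scnn1a* (0.71) and *Atp12a* (0.012) in WT recovery and *Scnn1a* averaged over genotypes in recovery (0.99), all with the posterior *Hox* covariate, and *Car1* in WT AOM/DSS, at 0.056 with that covariate, 0.11 by limma-voom and 0.036 without WT control replicate 2 (-5.33 to 0.036 without single libraries). The *Hox* term rests on WT control replicate 2 alone, so the turns with that covariate rest on that library. The cause was not tested. Other scalings moved the median of all genes by no more than -0.0967 on the log2 scale.

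Counts of the 10 members called moved as follows. The shares of all genes called under the alternatives are not given here, so these counts show only how the calls moved. In WT recovery 6 became 2 with no filter, 2 with the *Hox* covariate, 3 with the *Xist* covariate, 2 with only the groups compared, and 1 to 5 without single libraries. In *Cldn2*KO recovery 4 became 7 by limma-voom, 1 with the *Hox* covariate, 7 with only the groups compared, and 3 to 4 without single libraries. In WT AOM/DSS 4 became 1 with no filter, 0 with only the groups compared, and 1 to 3 without single libraries. In *Cldn2*KO AOM/DSS 0 became 3 by DESeq2, 6 by limma-voom, 7 with only the groups compared, and 0 to 1 without single libraries. Between genotypes, 0 became 1 by limma-voom in controls, in recovery and for the interaction in recovery, and 1 with the *Hox* covariate in recovery. Averaged over genotypes, 7 became 2 with the *Hox* covariate in recovery (7 to 8 without single libraries), and 5 became 3 with no filter in AOM/DSS (3 to 5). Averaged over treatments, the genotype count of 0 became 1 by DESeq2, by limma-voom and with the *Hox* covariate (0 to 1 without single libraries).

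Counts of the 54 other transport genes moved likewise. In WT recovery 13 became 31 by limma-voom, 6 with only the groups compared and 8 to 17 without single libraries. In *Cldn2*KO recovery 17 became 33 by limma-voom, 2 with the *Hox* covariate, 9 with the *Xist* covariate, 29 with only the groups compared and 9 to 12 without single libraries. In WT AOM/DSS 15 became 4 with the *Hox* covariate, 0 with only the groups compared and 1 to 19 without single libraries. In *Cldn2*KO AOM/DSS 1 became 0 with upper-quartile scaling, no filter or the *Xist* covariate, 6 by DESeq2, 18 by limma-voom, 6 with the *Hox* covariate, 12 with only the groups compared and 0 to 2 without single libraries. Between genotypes, 0 in controls became 3 by DESeq2, 11 by limma-voom, 1 with the *Hox* covariate and 0 to 3 without single libraries, and 1 in recovery became 7 by limma-voom, 2 with the *Hox* covariate, 0 with the *Xist* covariate or only the groups compared, and 0 to 1 without single libraries. The interaction count of 0 in recovery became 5 by DESeq2, 6 by limma-voom and 0 to 2 without single libraries, and that in AOM/DSS 1 by limma-voom. Averaged over genotypes, 25 in recovery became 9 with the *Hox* covariate and 15 with the *Xist* covariate (23 to 30 without single libraries), and 20 in AOM/DSS was 13 to 23 without single libraries. Averaged over treatments, 0 became 2 by DESeq2, 6 by limma-voom, 1 with the *Hox* covariate and 0 to 1 without single libraries.

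Control libraries share numbers 1 to 3 across genotypes. Same-numbered libraries had correlations of their deviations from group means of 0.158, 0.00234 and 0.0794, of which 0.158 was the highest of all pairs. WT control replicate 2 correlated best with *Cldn2*KO control replicate 3 (0.0558). That WT library weighs heavily on the mean of its group, so these values cannot settle whether libraries were paired. With the replicate block 2 in place of 4 members were called in WT AOM/DSS, and 0 in place of 1 other transport gene in *Cldn2*KO AOM/DSS and between genotypes in recovery. Of 26 values of single members, 22 kept their call under the block and 4 lost it. With 3 libraries a group, *Scnn1g* and the recovery levels of *Atp12a* rested on few reads.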
